A study of Homo sapiens with 55 samples.

Results

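Alternative acceptors 4 to 9 nt apart are pairs of 3' splice sites that share a donor and lie so close that the choice between them adds or removes 4 to 9 nucleotides at the start of the exon. They were taken from the deposited table of splicing events as the alternative 3' splice site events with exactly 2 junctions whose intron lengths differed by 4 to 9 nt, a rule that uses positions and no measured value. This gave 2122 of 110818 events, or 2122 of the 32660 alternative 3' splice site events with 2 junctions. The value of each event is the usage of the upstream acceptor, the site that is met first from the donor, in percent of both. RNA was sequenced from K562, a human chronic myeloid leukemia line, and 293T, a line from human embryonic kidney. In K562 the SF3B1 panel compared WT cells with a knock-in of SF3B1 K700E, the SRSF2 panel overexpressed SRSF2 WT or P95H, and the U2AF1 panel overexpressed U2AF1 WT or S34F. Each panel had a control guide against Renilla luciferase (sgRenilla) and guides against GPATCH8, and the SF3B1 and 293T panels also had guides against SUGP1. The 293T cells carried no splicing factor mutation in the labels. The SF3B1 panel had 1 sgRenilla library per genotype and 2 libraries for each other group (10 in all), which by the sample descriptions are 2 different guides with 1 library each and were treated here as replicates, the SRSF2 and U2AF1 panels had 3 per group (12 each), and 293T had 2 sgRenilla libraries and 4 for each target. The labels name neither clones nor separate cultures, so p-values measure the spread between these libraries, which may be technical. "Loss" of GPATCH8 or SUGP1 stands for libraries with that guide, since the files hold no gene levels with which a guide, or the identity of the cells, could be checked.

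During the second step of splicing the spliceosome joins the upstream exon to an AG downstream of the branch point. U2AF1 contacts this AG, SF3B1 holds the branch point in the U2 snRNP, SUGP1 and GPATCH8 are G-patch proteins tied to SF3B1 function, and SRSF2 binds exonic enhancers. The AG nearest to the branch point is often preferred, and the base before it matters, with C and T generally favoured over A and G. A pair 6 or 9 nt apart keeps the reading frame and a pair 4, 5, 7 or 8 nt apart shifts it.

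The sequences below show, 5' to 3' and in RNA-sense DNA letters, the end of the intron and the start of the exon at acceptor pairs that span the observed range of usage. Capitals mark the last 3 bases before each acceptor, so that the first capital triplet belongs to the upstream site and the second to the downstream site. They were read from GENCODE 29 transcripts (build GRCh38) in which both sites lie inside an exon. The first 6 were picked after their values were seen, to show upstream sites that end in GAG with usage from low to high, and the last 4 carry other triplets.
RFC4: tttcattttGAGaTAGgcctgaac
PIGO: ccctctcttGAGgCAGtaggttgc
BSCL2: ccctctttgGAGgtgCAGggcctgaa
KHNYN: gtggttttgGAGaCAGgttcatgg
BAHD1: tctccctttGAGcccttgCAGaatgaagt
NUMB: tattttcttGAGctgaaaCAGataagata
PTK7: tgtgtctctCAGacAAGcctgtgcc
STRADA: tctctacccCAGagCAGcctccggg
ANKLE1: cggtgtttgCAGggCAGtagaggag
CREB3L3: ttttttccgTAGcaaCAGcatcacct

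For 4 members on which the comparisons turn, the letters were read from a transcript whose exon starts at the upstream acceptor, since no exon that spans both sites was found. They begin with the segment between the sites. Capitals mark the 3 bases before the downstream acceptor, and the upstream triplet is not shown.
ENOX2: cctTAGtatcacag
GSN: ttcttgCAGatacagcg
VRK1: ttaCAGgtttatga
SMARCAD1: tcaCAGaaaaaaac

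The most common distance was 4 nt with 791 members, followed by 5 nt with 510 and 6 nt with 346. There were 142 members at 7 nt, 126 at 8 nt and 207 at 9 nt, so that 553 kept the reading frame and 1569 shifted it. Gene names were found for 2024 members (95.4%), in 1819 genes. The annotation placed 1552 in coding sequence, 344 in a 5' UTR, 17 in a 3' UTR and 8 at the edge of a coding sequence. Both sites were annotated in 932 members, only the upstream site in 992, only the downstream site in 100 and neither in 98. The introns were 62 to 541935 nt long, with a median of 1550.5 nt. Some members share their sites, since 130 of them fall into 60 acceptor pairs that are reached from several donors.

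Values were missing where the files gave none. All 44 libraries had a value for 1473 members and 120 had none anywhere. Single libraries had a value for 79.4% to 84.9% of members. Over the tested members of each panel (defined with the comparisons), the mean usage per library ran from 73.45% to 75.6%, and no library stood apart by this measure. The SF3B1 panel has 2 sequencing runs under each replicate number, which were averaged as 1 library, though nothing in the labels says that they are repeats of the same library. Where 1 run had no value the other was used alone. In the SRSF2 panel, replicate 3 of P95H with sgGPATCH8 is 2 samples in the labels and 1 column in the file, and which run it holds is not known. The 2 runs of the SF3B1 panel differed by a median of 4 points per member in every library. The files give fractions with no reads behind them, so the depth of each value is unknown and no counting interval can be given.

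The upstream acceptor was used far more than the downstream one. Over the sgRenilla libraries, mutants included and the 4 panels weighted equally, the median usage of the 1473 members with complete values was 97.42%. Usage was over 95% in 951 members (64.6%), from 5% to 95% in 482 (32.7%) and under 5% in 40 (2.72%). The upstream site held the majority in 1340 members (91.0%), and 134 (9.1%) lay between 20% and 80%. The median was 97.4% at 4 nt, 96.1% at 5 nt, 97.5% at 6 nt, 98.8% at 7 nt, 97.9% at 8 nt and 98.1% at 9 nt, so no distance left the top of the scale. Just outside the rule, events 3 nt apart had a median of 96.1% (n = 8433) and events 10 nt apart 97.4% (n = 84).

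**Figure D1:**
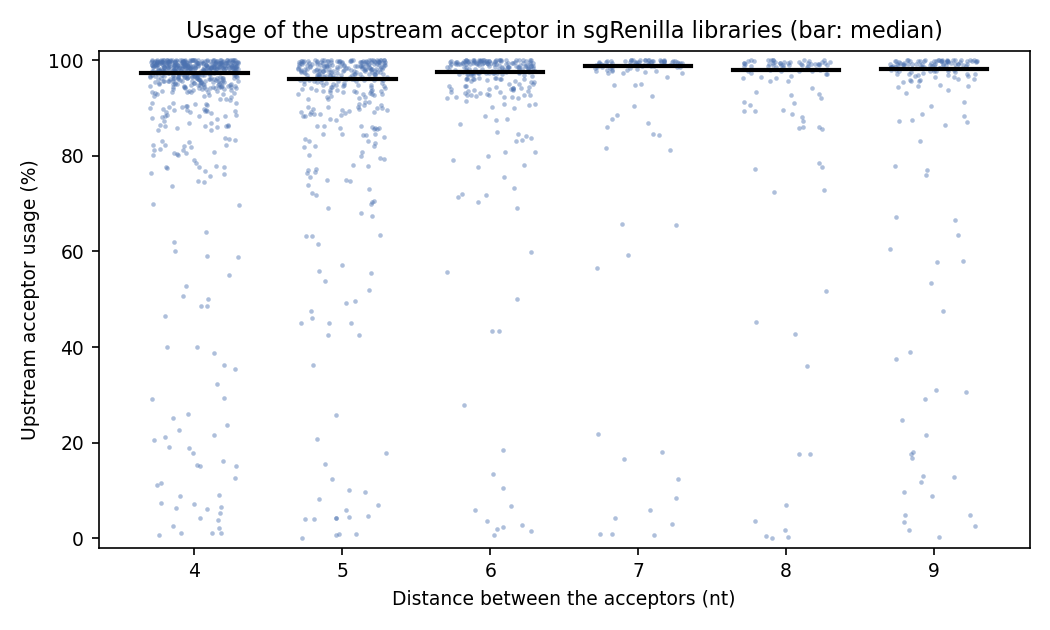
Usage of the upstream acceptor (percent, y axis) in the sgRenilla libraries for each of the 1473 members with complete values, by the distance between the acceptors (nt, x axis). Each point is a member and bars are medians. The medians lie between 96.1% and 98.8%, and members with low usage occur at every distance.

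Position in the transcript went with the level. The median was 98.0% for members in coding sequence (n = 1173), 91.8% in 5' UTRs (n = 195) and 78.9% in noncoding transcripts (n = 32). Where both sites were annotated in coding sequence, the median was 96.8% for pairs that keep the frame (n = 148) and 96.7% for pairs that shift it (n = 335). Members with only the upstream site annotated had a median of 98.4% (n = 768) and members with only the downstream site annotated 9.62% (n = 53). These are descriptions over members of the same libraries, and members are not replicates.

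The bases before the upstream site separated the levels more than distance did. Of 1952 members with sequence, 1940 (99.4%) had AG at the downstream site, and of 491 with sequence across both sites, 479 (97.6%) had AG at the upstream site. Members whose upstream site ended in CAG had a median usage of 98.0% (n = 214) and those with TAG 97.8% (n = 82). With AAG the median was 93.4% (n = 42), with quartiles of 74.4% and 98.1%. With GAG, as in RFC4 and PIGO above, it was 21.5% (n = 19), with quartiles of 5.97% and 45.4%. The upstream site held the majority in 209 of the 214 CAG members and in 4 of the 19 GAG members. The downstream triplet ran the other way and over a narrower range, with medians of 97.1% for CAG (n = 830), 97.4% for TAG (n = 242), 98.7% for AAG (n = 256) and 99.0% for GAG (n = 44). Sequence across both sites exists only where an annotated exon spans them, so this subset is not a random sample of the members.

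Among the GAG members shown above, RFC4, a subunit of the clamp loader of DNA replication, used its upstream site at 1.02%. PIGO, an enzyme of the GPI anchor pathway, stood at 4.23%, the lipid droplet gene BSCL2 at 5.9% and KHNYN, a cofactor of the antiviral protein ZAP, at 12.52%. BAHD1, a heterochromatin protein, was at 39.0%, and NUMB, a regulator of Notch signalling, was at 88.38%. GAG sites therefore covered nearly the whole scale, with the highest GAG member at 98.6%.

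Members near an even split differed greatly in how tightly the libraries held it. API5, an inhibitor of apoptosis with sites 5 nt apart in coding sequence (chromosome 11, hg19, acceptors at 43363978 and 43363983), was used at 42% to 56% in all 44 libraries, with a median of 49.5%. CDC25C, the phosphatase that starts mitosis, ran from 40% to 62% (median 48.5%) and the kinase gene VRK2 from 38% to 64% (median 51.0%). CEP290, a protein of the ciliary transition zone, ran from 15% to 91% with a median of 59.25%. HCG25, a noncoding transcript, ran from 20% to 95%. Libraries of the same group lay far apart in both, as in U2AF1 WT with sgRenilla, where CEP290 was at 15%, 82% and 70% and HCG25 at 78%, 41% and 73%. Other members nearest 50% at their distance were CHMP2B, SMARCAD1, MAZ, MLF1, IFT88 and BANP, with medians over the 44 libraries between 40.5% (MLF1) and 55% (IFT88).

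Between the mean of the 3 K562 panels and 293T, both with sgRenilla, 1276 of 1473 members (86.6%) lay within 5 points, and 23 differed by over 20 points, 14 of them higher in K562 and 9 higher in 293T. The K562 means include the K700E, P95H and S34F libraries, while 293T has no mutant, so mutant effects are part of these differences. Most members sit over 95% in both lines, where they can hardly differ. Over the 482 members at 5% to 95%, 401 (83.2%) lay within 10 points and Pearson's r was 0.947, given as a description over members that share libraries. STXBP4, a syntaxin-binding protein, had the clearest separation, with 1% to 5% in the 10 libraries of 293T and 22% to 51% in the 34 libraries of K562. ANKRD9 was used at 15% to 45% in 293T and 57% to 89% in K562. TMEM216, a protein of the ciliary transition zone, went the other way with 31% to 48% in 293T and 3% to 22% in K562. These 3 members, and NLRP1 below, had no overlap between the cell lines in any library.

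NLRP1, an inflammasome sensor, was used at 97% to 100% in every K562 library and at 43% and 59% in the sgRenilla libraries of 293T. The other 293T libraries of NLRP1 reached from 41% to 94%, so this member varied widely within 293T. The leukemia-associated gene MLF1 averaged 37.11% in K562 and 69.5% in 293T, and FIGNL1, an ATPase of homologous recombination, 66.78% and 95%. Differences between the cell lines were not tested, because the lines were sequenced as separate panels.

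**Figure D2:**
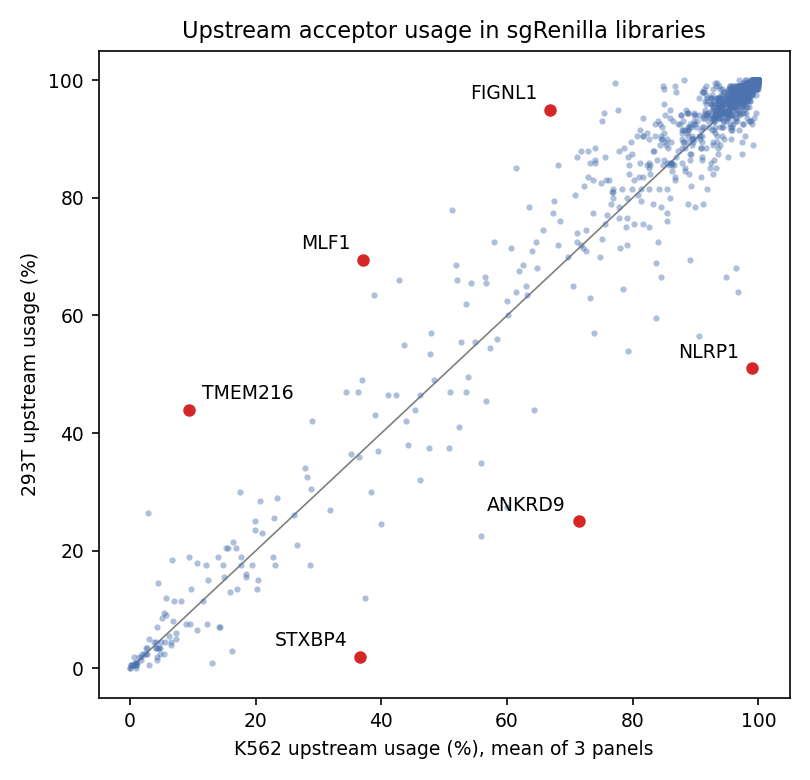
Upstream acceptor usage in the sgRenilla libraries of 293T (percent, y axis) against the mean of the 3 K562 panels, mutants included (percent, x axis), for 1473 members. Each point is a member, the line marks equal usage, and the 3 members with the largest difference in each direction are red. Most points lie along the line, and STXBP4 falls from 36.56% in K562 to 2.0% in 293T.

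Comparisons between conditions were tested with limma on the log2 ratio of upstream to downstream usage, over all splicing events that had a value in every library of the panel and a group mean of at least 5% and one of at most 95%. A call required a gap of at least 5 percentage points between the means and a Benjamini-Hochberg adjusted p under 0.05, with the adjustment made over every tested event of the panel. This filter was passed by 789 members in the SF3B1 panel and by 651, 682 and 673 in those of SRSF2, U2AF1 and 293T, and 981 members passed it at least once. Members used at nearly 100% everywhere were therefore not tested, and a member near an end of the scale was tested only where a group had left it. The members named where a comparison called none are the 2 with the largest difference among those with an unadjusted p under 0.01.

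Averaged over the guide targets, with 5 libraries of each genotype, 17 of 789 members were called between K700E and WT (12 rose and 5 fell; 136 had an unadjusted p under 0.05), a share of 2.15% beside 3.35% of all 50823 events. At the neighbouring distances 182 of 6560 events 3 nt apart (2.77%) and 87 of 1283 events 10 to 30 nt apart (6.78%) were called, and the difference between distances was not tested. The median difference of the 789 members was 0 points, and 623 of them (79%) moved by less than 5 points. In 10 of the 17 called members the genotypes did not overlap after the runs were averaged, and several of these overlapped within a run (below). The share without overlap among all called events is not given, so this count is not read as a trait of the members. Of the 17 called members 12 lie in coding sequence and 5 keep the reading frame, beside 1552 and 553 of all 2122 members. Only the 789 tested members could be called, and these counts are not given for them, so no excess or lack is read from this.

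**Figure D3:**
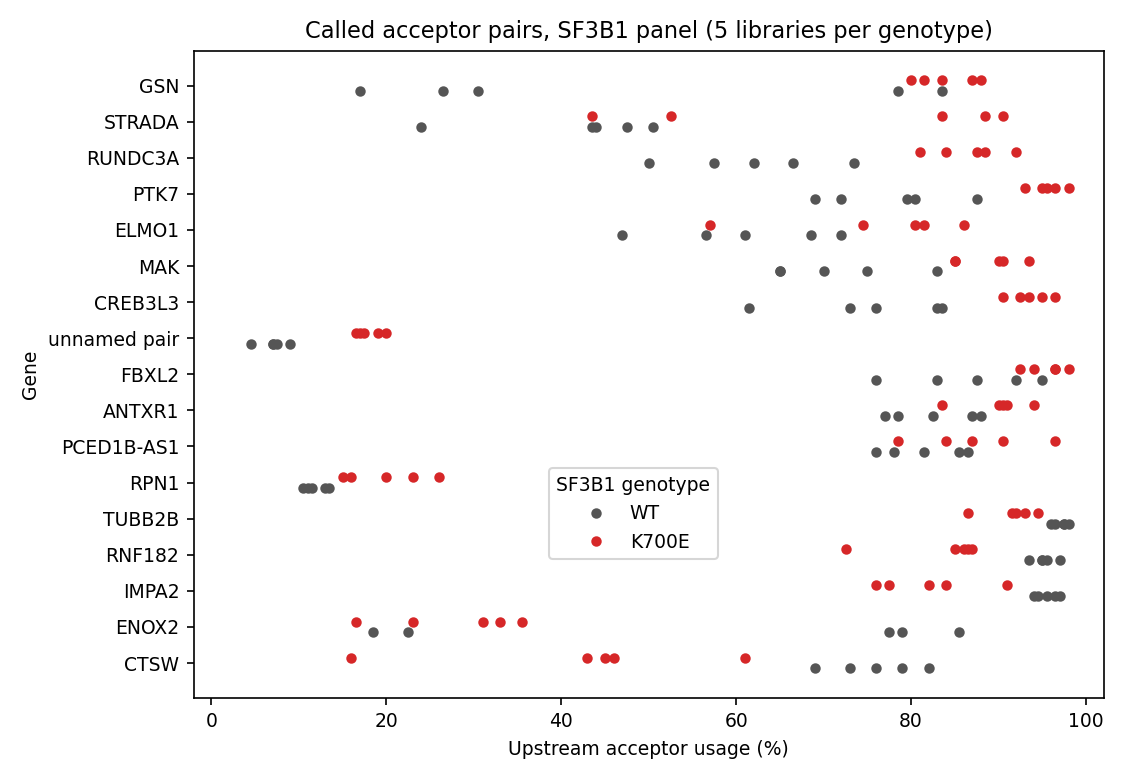
Upstream acceptor usage (percent, x axis) in the 5 WT and 5 K700E libraries of the SF3B1 panel for the 17 members called between genotypes (y axis). Each point is a library. The WT libraries with sgSUGP1 sit beside K700E in GSN and ENOX2, which is why the genotypes overlap in them.

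The largest rise was in GSN, which encodes the actin-severing protein gelsolin. Its sites lie 9 nt apart in the 5' UTR (chromosome 9, hg19, acceptors at 124062334 and 124062343). In WT cells the upstream site was used at 30.5% with sgRenilla, 17% and 26.5% with sgGPATCH8 and 78.5% and 83.5% with sgSUGP1. In K700E cells it was used at 83.5% with sgRenilla, 81.5% and 80% with sgGPATCH8 and 87% and 88% with sgSUGP1. All K700E libraries of GSN and both WT libraries with sgSUGP1 were thus high, and the other 3 WT libraries were low. The average difference for GSN was 39.5 points (change of the log2 ratio 2.65, SE 0.21, limma adjusted p = 0.00812), and it was called with each of the 8 libraries of guide groups left out in turn (adjusted p up to 0.0423). GSN was at 20% and 28% in 293T with sgRenilla, at 15% to 28% with sgGPATCH8 and at 76% to 88% with sgSUGP1. The 57.75-point difference for SUGP1 loss in 293T had a limma adjusted p of 0.0615, and the 50.5 points in WT K562 one of 0.116, so neither was called. In the SRSF2 and U2AF1 panels GSN had values in 17 libraries, from 5% to 50%.

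ENOX2, a cell-surface NADH oxidase, moved in the opposite direction. Its sites lie 6 nt apart in coding sequence (chromosome X, hg19, acceptors at 129771384 and 129771378). In WT K562 the upstream site was used at 85.5% with sgRenilla, 77.5% and 79% with sgGPATCH8 and 18.5% and 22.5% with sgSUGP1. In K700E cells it stood at 35.5% with sgRenilla, 33% and 31% with sgGPATCH8 and 16.5% and 23% with sgSUGP1. For ENOX2 the lowest values were those with sgSUGP1 in either genotype, and the K700E libraries without that guide lay between these and WT. With K700E the average fell by 32.33 points (change of the log2 ratio −2.09, SE 0.17, limma adjusted p = 0.00857), a call that held with each of 8 libraries left out in turn.

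ENOX2 was also the 1 member called for SUGP1 loss. In WT K562 it fell by 65.0 points (limma adjusted p = 0.0476), 1 of 789 members beside 0.0197% of all events. Here 1 sgRenilla library stands against 2 with sgSUGP1, and the control is assumed to vary like the other groups of the panel. In 293T it stood at 84% and 82% with sgRenilla and at 35%, 38%, 26% and 36% with sgSUGP1, and fell by 49.25 points (limma adjusted p = 0.0229), 1 of 673 members beside 0.0452% of all events. The groups of ENOX2 did not overlap in either comparison. Both calls were lost whenever 1 library was left out, with adjusted p of 0.191 to 0.239 in K562 and 0.111 to 0.259 in 293T, while the difference stayed between −67.0 and −63.0 points and between −51.5 and −47.0 points. With sgGPATCH8 the 293T libraries of ENOX2 were at 78% to 81%, and the SRSF2 and U2AF1 panels ran from 60% to 93% over all their libraries.

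**Figure D4:**
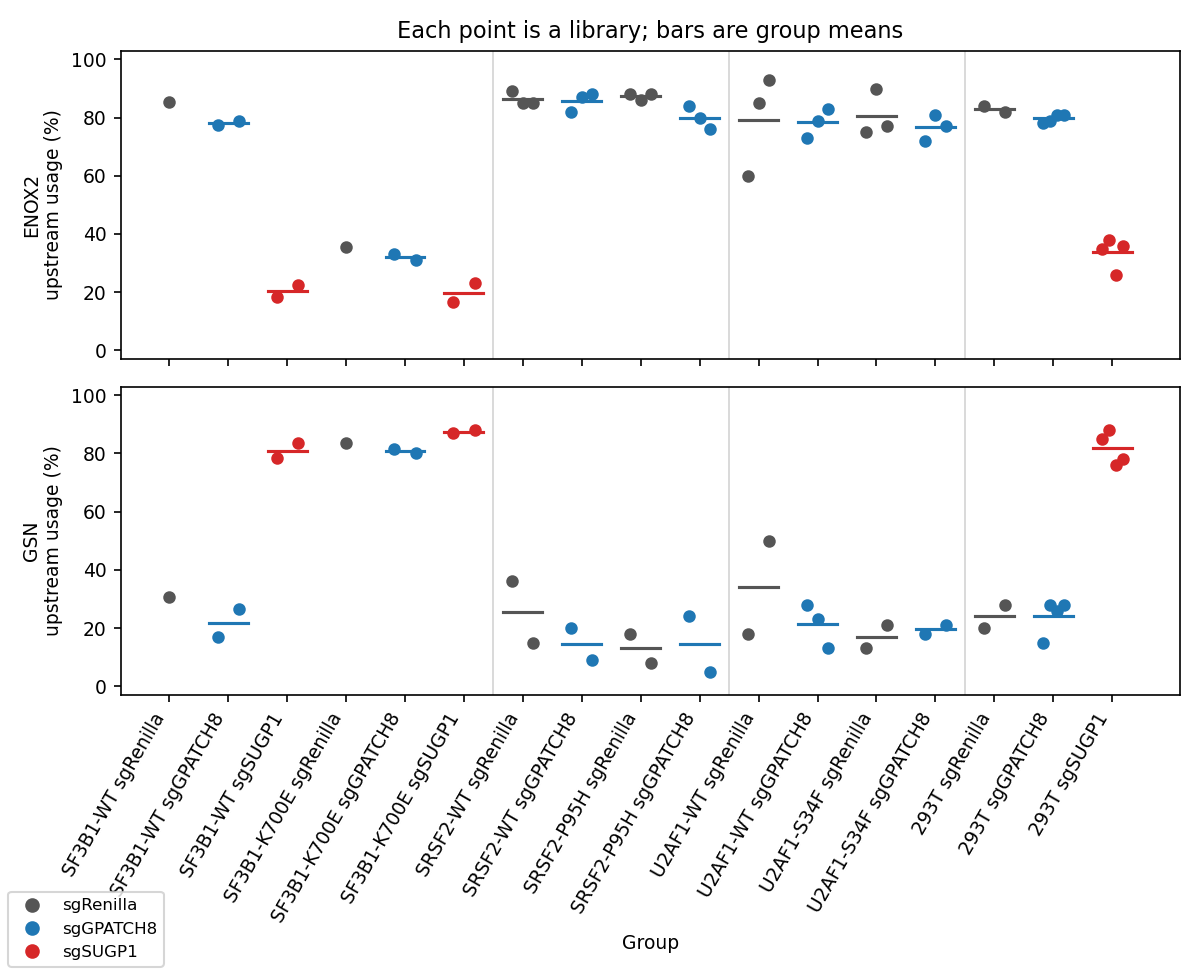
Upstream acceptor usage (percent, y axis) of ENOX2 and GSN in every library, by group (x axis). Points are libraries, coloured by guide, bars are group means where a group has several values, and grey lines separate the panels. ENOX2 is low and GSN high in the K700E libraries and in those with sgSUGP1 in K562 and 293T, and in no other group mean.

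SUGP1 loss in K700E cells called 0 of 789 members by limma (62 had an unadjusted p under 0.05), beside 0.0944% of all events. ENOX2 differed there by −15.75 points (limma adjusted p = 0.248). The largest differences among members with an unadjusted p under 0.01 were in ANKLE1, a DNA-processing nuclease, at −30.75 points, and in CTSW at 28.5 points, and neither was called. Whether SUGP1 loss acts differently in WT and K700E cells was not tested.

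The other members that rose with K700E and had no overlap between genotypes were RUNDC3A, PTK7, CREB3L3, MAK, RPN1 and an unnamed pair. PTK7, a Wnt co-receptor, has sites 5 nt apart in coding sequence, CAG before AAG as shown above. It was used at 69%, 80.5%, 72%, 87.5% and 79.5% in WT libraries and at 95%, 95.5%, 93%, 96.5% and 98% with K700E. PTK7 thus rose by 19.25 points (change of the log2 ratio 2.495, SE 0.281, limma adjusted p = 0.0171). In all other panels every library lay between 96% and 100%, above every WT library and some K700E libraries of this panel. The size of the difference depended on the run, with 10 points in run 1 and 28.5 points in run 2. WT with sgRenilla was at 91% in run 1 and 47% in run 2, and the genotypes of PTK7 overlapped within each run. The call was lost with 4 of 8 libraries left out.

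RUNDC3A rose by 23.0 points, with WT at 50% to 73.5% and K700E at 81% to 92%, and its difference was 9.67 points in run 1 and 33.17 in run 2. MAK, a kinase of ciliated cells, went from 65% to 83% in WT to 85% to 93.5%, and the liver transcription factor gene CREB3L3 from 61.5% to 83.5% in WT to 90.5% to 96.5%. RPN1, a subunit of the oligosaccharyltransferase whose upstream site ends in GAG, went from 10.5% to 13.5% in WT to 15% to 26%. The runs of RPN1 disagreed. Its K700E libraries with sgSUGP1 were at 6% and 17% in run 1 and at 46% and 29% in run 2. The other K700E libraries of RPN1 were at 23% to 34% in run 1 and 6% to 7% in run 2. Its genotypes were thus apart only in the average. Within runs the genotypes also overlapped for RUNDC3A in both, and for MAK in run 2, with K700E down to 85% and WT up to 87%. The unnamed pair (chromosome 12, minus strand, hg19, acceptors at 7079231 and 7079226) went from 4.5% to 9% in WT to 16.5% to 20%. Its difference was 14.17 points in run 1 and 8.33 in run 2. Its K700E library with sgGPATCH8 replicate 1 was at 30% in run 1 and 4% in run 2, where WT lay at 5% to 12%. The limma adjusted p of these 5 lay between 0.0268 and 0.0471. MAK and RPN1 lost the call with each of 8 libraries left out (adjusted p up to 0.09 and 0.11), and CREB3L3 and RUNDC3A with 7 of 8 (adjusted p up to 0.0962 and 0.111).

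Of the members that fell, CTSW, the protease gene cathepsin W, moved most. Its sites lie 7 nt apart in coding sequence (chromosome 11, hg19, acceptors at 65647673 and 65647680). CTSW was used at 79%, 69%, 73%, 82% and 76% in WT and at 16%, 61%, 45%, 43% and 46% with K700E, so that the genotypes did not overlap. Each library of CTSW had a value in 1 of the 2 runs only, so no difference within a run could be had for all groups. WT with sgRenilla had its value in run 1 and K700E with sgRenilla in run 2, so genotype and run are mixed in that pair. Run 1 held WT at 79%, 82% and 76% and K700E at 45%, 43% and 46%. Run 2 held WT at 69% and 73% and K700E at 16% and 61%. The genotypes of CTSW thus did not overlap within either run. CTSW fell by 38.5 points (change of the log2 ratio −2.49, SE 0.24, limma adjusted p = 0.012). IMPA2, an inositol monophosphatase, fell by 13.17 points from 94% to 97% in WT to 76% to 91%, RNF182, a ubiquitin ligase, by 11.25 points from 93.5% to 97% to 72.5% to 87% (−7.5 points in run 1 and −15.0 in run 2), and the beta-tubulin gene TUBB2B fell by 5.42 points from 96% to 98% to 86.5% to 94.5%. The limma adjusted p was 0.0475 for IMPA2, 0.0317 for RNF182 and 0.031 for TUBB2B, which passed the filter only through the K700E groups. These 3 lost the call with each of 8 libraries left out, with adjusted p up to 0.105, 0.0816 and 0.0834. Within each run the genotypes overlapped for IMPA2 and RNF182 and met at a shared value for TUBB2B.

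Most of these calls stood close to the threshold. Of the 17 members, 2 (GSN and ENOX2) were called with each of 8 libraries left out in turn, 8 were lost every time, and the other 7 lost the call in some cases. CTSW lost it only without the K700E library with sgSUGP1 replicate 1 (adjusted p 0.0509). Leaving out 1 library brought the number of called members from 17 to between 3 and 7, and run 1 alone gave 1 and run 2 alone 2.

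With sgRenilla alone, where each genotype has 1 library, limma called 0 of 789 members (83 had an unadjusted p under 0.05), as in all events (0%). Among members with an unadjusted p under 0.01 the largest differences were in CTSW, from 79% to 16%, 2 values that come from different runs, and in GSN, from 30.5% to 83.5%.

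Loss of GPATCH8 called no member in the SF3B1 panel. Averaged over genotypes, limma called 0 of 789 (53 at an unadjusted p under 0.05) beside 0.00984% of all events, and the interaction of K700E with GPATCH8 loss called 0 (59 at an unadjusted p under 0.05) beside 0.0295%. TPRXL differed by 27.25 points and STRADA by −25.38 points, with limma adjusted p of 0.227 and 0.289. STRADA, a pseudokinase that activates LKB1, was used at 44% in WT and 88.5% in K700E with sgRenilla, at 43.5% and 24% in WT and 52.5% and 43.5% in K700E with sgGPATCH8, and at 50.5% and 47.5% in WT and 83.5% and 90.5% in K700E with sgSUGP1. The K700E libraries of STRADA were high without sgGPATCH8 and near WT with it. Its runs differed in level, with WT with sgRenilla at 26% in run 1 and 62% in run 2. K700E with sgGPATCH8 was at 39% and 24% in run 1 and at 66% and 63% in run 2. WT with sgGPATCH8 replicate 2 had a value in run 2 only. Its K700E call (32.25 points, limma adjusted p = 0.0269) was lost with 7 of 8 libraries left out, and its interaction (−30.25 points) had a limma adjusted p of 0.463. For the interaction the largest differences at an unadjusted p under 0.01, also not called, were −53.25 points in an unnamed pair (chromosome 19, minus strand, hg19, acceptors at 11527341 and 11527336) and −52.25 in FAM92A, a protein of the ciliary base.

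In the U2AF1 panel STRADA was at 68%, 88% and 61% in WT with sgRenilla and at 14%, 46% and 24% with sgGPATCH8, and at 28%, 64% and 72% against 23%, 31% and 11% in S34F. It was lower with sgGPATCH8 in each of the group means of the 4 panels, by 8.25 points in 293T, where the groups overlapped. None of these differences of STRADA was called (limma adjusted p = 0.65 in U2AF1 WT and 0.624 in S34F). In the SRSF2 panel 1 value was missing and STRADA was not tested.

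VRK1, a nuclear kinase that phosphorylates chromatin proteins, was called for GPATCH8 loss in both SRSF2 genotypes. Its sites lie 6 nt apart in coding sequence (chromosome 14, hg19, acceptors at 97319168 and 97319174), and only the upstream one is annotated. In SRSF2 WT cells it was used at 94%, 93% and 94% with sgRenilla and at 86%, 87% and 87% with sgGPATCH8. The groups did not overlap and VRK1 fell by 7.0 points (change of the log2 ratio −1.08, SE 0.17, limma adjusted p = 0.027), the 1 call among 651 members beside 0.491% of all events. In SRSF2 P95H cells it went from 94%, 93% and 92% to 89%, 87% and 88%, and fell by 5.0 points (limma adjusted p = 0.0289).

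In the other panels the difference of VRK1 had the same sign and was not called. In the SF3B1 panel usage was 96% in both sgRenilla libraries and 86.5%, 87.5%, 87.5% and 89.5% with sgGPATCH8, a difference of −8.25 points (limma adjusted p = 0.106). In 293T it was 98% and 99% with sgRenilla and 89% to 93% with sgGPATCH8, a difference of −7.25 points (limma adjusted p = 0.0722). VRK1 passed the filter in 293T only through the sgGPATCH8 group, so that a difference was needed for it to be tested there. In the U2AF1 panel the difference was −4.67 points in WT and −2.67 points in S34F, where the groups overlapped (limma adjusted p = 0.956 and 0.884). With sgSUGP1 VRK1 also lay below sgRenilla, though above sgGPATCH8, and was not called. It was at 92% and 93% in WT K562 of the SF3B1 panel and at 94% and 95% in K700E, the same in both runs. In 293T it was at 96% to 97% with sgSUGP1. The sgRenilla and sgGPATCH8 libraries of VRK1 overlapped in S34F alone among the pairs of groups given here. Each SRSF2 WT library left out ended the call there (adjusted p 0.0645 to 0.11), as did 5 of 6 in P95H (adjusted p up to 0.0953).

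SMARCAD1, a chromatin remodeller with sites 6 nt apart in coding sequence (chromosome 4, hg19, acceptors at 95200074 and 95200080), lay close to 50% and differed in opposite directions with sgSUGP1 and sgGPATCH8, without a call. In WT K562 of the SF3B1 panel it was used at 45% with sgRenilla, 52.5% and 59.5% with sgGPATCH8 and 31.5% and 32.5% with sgSUGP1. In 293T it was 49% and 45% with sgRenilla, 62%, 48%, 59% and 53% with sgGPATCH8 and 33%, 47%, 32% and 34% with sgSUGP1. With sgSUGP1 the SMARCAD1 means differed by −13.0 points in WT K562, −12.0 in K700E and −10.5 in 293T, with limma adjusted p of 0.489, 0.379 and 0.665. With sgGPATCH8 they differed by 2.0 to 13.0 points over the panels and genotypes that were tested, the largest in U2AF1 S34F, with a limma adjusted p of 0.497.

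**Figure D5:**
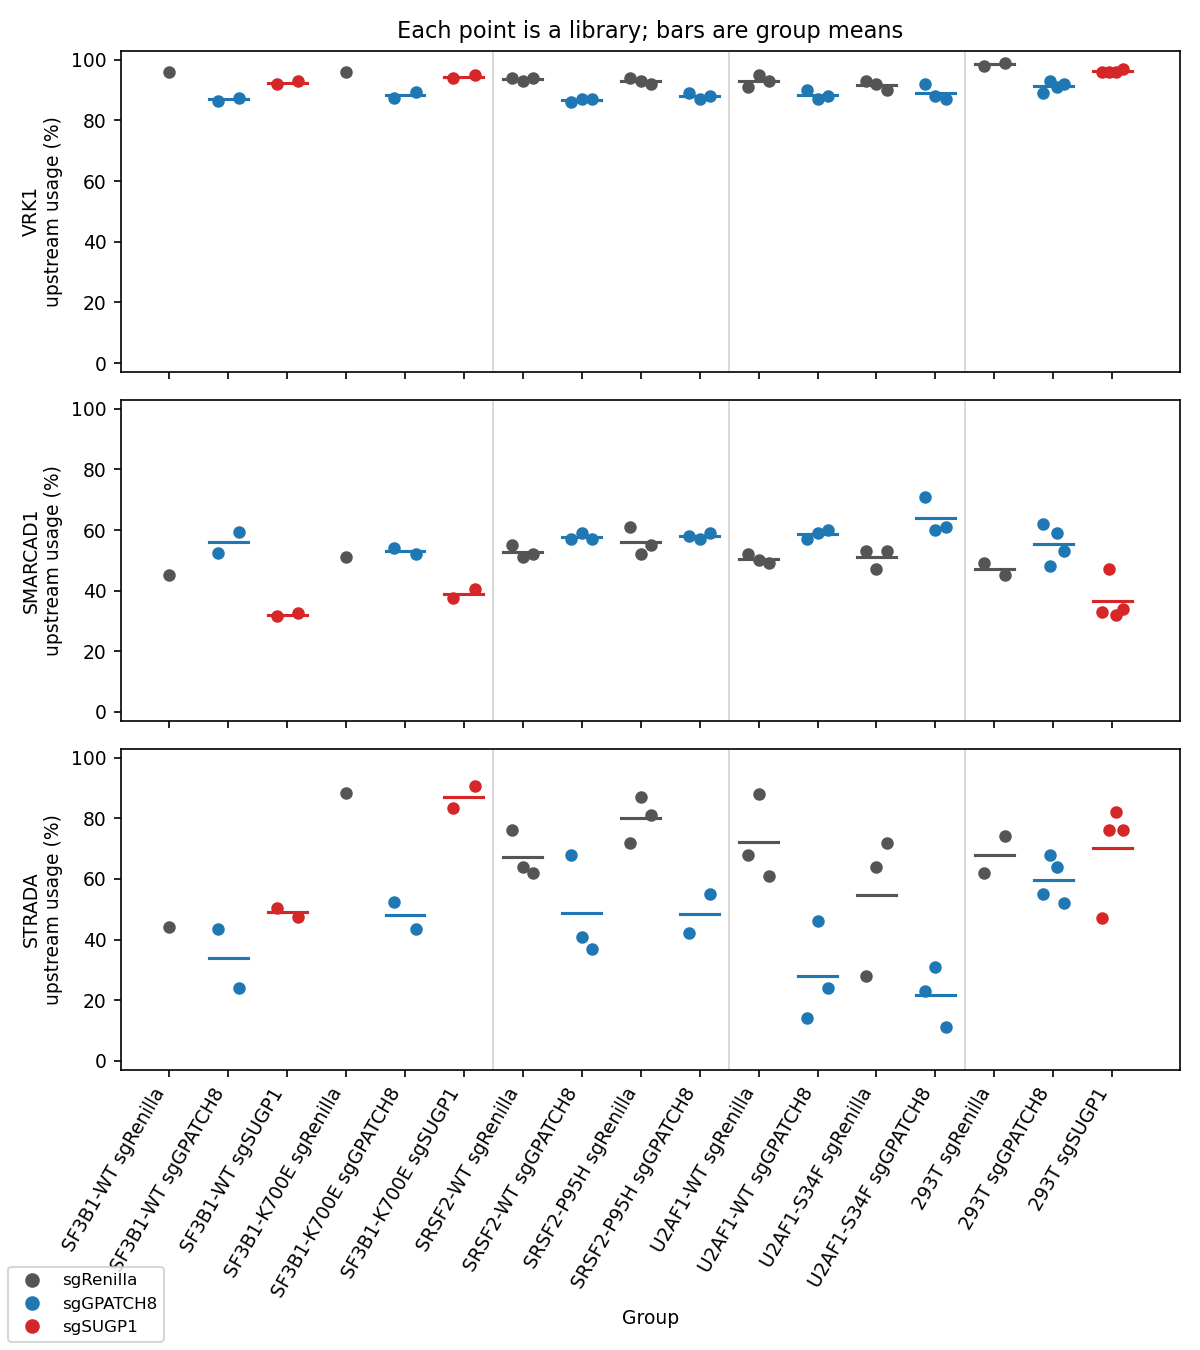
Upstream acceptor usage (percent, y axis) of VRK1, SMARCAD1 and STRADA in every library, by group (x axis). Points are libraries, coloured by guide, bars are group means where a group has several values, and grey lines separate the panels. The sgGPATCH8 libraries of VRK1 lie at 86% to 93% and its sgRenilla libraries at 90% to 99%, and the sgSUGP1 libraries of SMARCAD1 are lower than its sgGPATCH8 libraries in every panel that has both.

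Between SRSF2 P95H and WT, with sgRenilla, 1 of 651 members was called (44 at an unadjusted p under 0.05) beside 1.08% of all events. This was CYLD, a deubiquitinase that limits NF-kappaB signalling, with sites 9 nt apart in coding sequence (chromosome 16, hg19, acceptors at 50810081 and 50810090), of which only the downstream one is annotated. The upstream site of CYLD was used at 5%, 6% and 6% in WT and at 0%, 1% and 1% with P95H, and fell by 5.0 points (change of the log2 ratio −2.14, SE 0.39, limma adjusted p = 0.0344). The groups did not overlap, but the levels lie within a few points of 0, CYLD passed the filter only through the WT sgRenilla group, and the call was lost with each of 6 libraries left out (adjusted p 0.0755 to 0.113).

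Loss of GPATCH8 in P95H cells called 11 of 651 members, 3 up and 8 down (83 had an unadjusted p under 0.05), a share of 1.69% beside 4.84% of all events. In all 11 the 3 libraries of each group did not overlap. The share without overlap among all called events is not given, so this is not read as a trait of the members. SEPT7, a septin of the cytoskeleton, rose by 7.67 points from 90%, 85% and 89% to 96%, 96% and 95% (change of the log2 ratio 1.39, SE 0.20, limma adjusted p = 0.00512). SRP14, a subunit of the signal recognition particle, went from 13%, 9% and 14% to 20%, 22% and 18%, and MPDU1, which acts in mannose transfer to glycans, from 89%, 91% and 90% to 96%, 95% and 96% (limma adjusted p = 0.0363 and 0.0499). SEPT7 and CPXM1 were called with each of 6 libraries left out.

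Among the members that fell, CPXM1, a carboxypeptidase-like secreted protein with sites 9 nt apart, went from 97%, 99% and 98% to 81%, 66% and 89%, a difference of −19.33 points (change of the log2 ratio −3.14, SE 0.51, limma adjusted p = 0.00855). CPXM1 and PTPRU passed the filter only through the group with sgGPATCH8 in P95H, so that a difference was needed for them to be tested at all. SPX, the gene of the peptide hormone spexin, went from 97%, 98% and 97% to 88%, 84% and 33%. Its mean fell by 29 points and by 11.33 without replicate 3 of sgGPATCH8, the library at 33% that stands for 2 samples in the labels. NDUFAF6, an assembly factor of respiratory complex I, went from 92%, 90% and 86% to 58%, 61% and 76%, and the centriolar gene CCDC146 from 91%, 86% and 91% to 67%, 61% and 72%. DCAF8, a substrate receptor of a ubiquitin ligase, fell by 8.0 points and the receptor phosphatase gene PTPRU by 7.67 points. VRK1 (above) and ALDH1L2, a mitochondrial folate enzyme named only to complete the 11, fell by 5.0 and 5.33 points. Of the 11 called members 9 lost the call with at least 1 library left out, CCDC146 and MPDU1 every time (adjusted p up to 0.111 and 0.136).

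With sgGPATCH8 in WT cells SEPT7 was at 91%, 91% and 90%, against 88%, 89% and 90% with sgRenilla, and CPXM1 at 93%, 96% and 97%, against 97%, 99% and 98%. The interaction of P95H with GPATCH8 loss called 0 of 651 members by limma (49 at an unadjusted p under 0.05) beside 0.0614% of all events, so no member was shown to respond differently in the 2 genotypes. By the rule for comparisons with no call, the differences in the interaction were 41.0 points in HSF4, a heat shock factor of the lens, and 29.33 points in the phospholipase gene PLA2G6, neither called.

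Between U2AF1 S34F and WT limma called 0 of 682 with sgRenilla (28 at an unadjusted p under 0.05) beside 0.0023% of all events. The members with the largest differences among those with an unadjusted p under 0.01 were SLC25A38, a mitochondrial carrier needed for heme synthesis, at 60%, 63% and 55% in WT against 40%, 11% and 27% in S34F, and FZD3, a Wnt receptor, at 58%, 46% and 44% against 90%, 88% and 69%. The groups of both did not overlap, and the limma adjusted p was 0.202 for SLC25A38 and 0.28 for FZD3. GPATCH8 loss called 0 of 682 in U2AF1 WT (27 at an unadjusted p under 0.05) beside 0.0322%, and 0 in S34F (52) beside 0.0345%. The interaction called 0 (26) beside 0% of all events. By this rule RNF182 and STRADA are given for WT, which differed by −35.67 and −44.33 points. In S34F, among members with an unadjusted p under 0.01, MCCC1, an enzyme of leucine breakdown, differed by −24.33 points and the unnamed pair on chromosome 19 by −20.33. In the interaction, by the same rule, FZD3 differed by −44.33 points and HADHB, of fatty acid oxidation, by −19.67.

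In 293T, GPATCH8 loss called 0 of 673 members by limma (54 at an unadjusted p under 0.05) beside 0.0731% of all events. The largest differences at an unadjusted p under 0.01 were in 2 members whose upstream site ends in GAG, IFT88 of ciliary transport by 37.5 points and the zinc finger gene ZNF433 by 34.5 points. IFT88 was at 28% and 17% with sgRenilla and at 47%, 82%, 54% and 57% with sgGPATCH8, and ZNF433 at 29% and 10% against 60%, 55%, 36% and 65%. The groups of IFT88 and ZNF433 did not overlap, while the sgGPATCH8 libraries spread widely, and the limma adjusted p was 0.326 and 0.31. In WT K562 of the SF3B1 panel IFT88 was at 54% and 53% in the 2 runs with sgRenilla and at 51% to 58% with sgGPATCH8. Over the tested members with upstream GAG the median difference in 293T was 2.0 points (n = 17), with quartiles of −2.0 and 4.5. For upstream CAG it was 0.0 (n = 83), with quartiles of −2.0 and 3.88, and no test was made.

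By upstream triplet, with K700E averaged over guide targets the median difference was −0.04 points for upstream CAG (n = 104), −0.17 for TAG (n = 35), −0.25 for AAG (n = 27) and 1.17 for GAG (n = 21). With S34F it was −0.17 for CAG (n = 88), 0.33 for TAG (n = 32), −0.67 for AAG (n = 25) and −0.67 for GAG (n = 19). For GAG with K700E the quartiles were −1.08 and 4.25 points, which overlap those of CAG, −2.21 and 1.96. No test was made.

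Of genes in lists of textbook targets and pathways, 4 of 42 SF3B1 targets, 6 of 23 U2AF1 targets and 2 of 17 SRSF2 targets held a member, as did 26 of 189 splicing factor genes, 34 of 172 translation genes and 30 of 126 DNA repair genes. Of these 1, 2, 1, 8, 4 and 15 members were tested and limma called 0 in any comparison, where 0% to 4.84% of all events were called, so with these numbers the count says nothing of the lists. Most were used almost only at the upstream site, with a median of 99.0% in splicing factor genes (n = 30) and 97.8% in DNA repair genes (n = 31). The list members between 20% and 80% were SEPT2 (36.06%), the splicing factor gene RBM26 (67.27%), the initiation factor gene EIF2A (40.02%), and the repair genes BRIP1 (62.06%), PARP3 (42.6%) and APTX (57.08%). BRIP1, a helicase of the Fanconi anemia pathway, stood at 61.42% in K562 and 64.0% in 293T.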

How the data were processed

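RNA from K562 and 293T libraries was polyA-selected, strand-specific and paired-end, per the labels' protocols. The authors deposited the usage of each isoform of a splicing event as a fraction from 0 to 1 with 2 decimals, in a separate file for each panel. The submitters' processing notes name RSEM 1.2.4, Bowtie, TopHat2 2.0.8b and TopHat, and hg19, without saying which step each served. No reads stand behind the deposited fractions, so depth is unknown and precision rests on the spread between libraries.

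Fractions were printed as percent. The 54 columns gave 44 libraries, since the 2 runs under each replicate number were averaged in the SF3B1 panel. Tests used limma 3.58.1 (R 4.3.3) on log2((f + 0.01)/(1 − f + 0.01)) with a trended prior variance, group means as terms and Benjamini-Hochberg adjustment over all tested events. In 293T each guide had its own mean and guides were weighted equally, so p-values there do not cover differences between guides. The fit was tested on simulated data. Genes were named by matching chromosome, strand and exact intron lengths to GENCODE 29. Positions for this match were shifted by a local offset between the builds, read from nearby long introns of equal length. The printed coordinates remain those of hg19. Named members are all those called where 8 or fewer were, otherwise the 6 largest rises and 6 largest falls among those called without overlap of the groups; the 2 largest differences at an unadjusted p under 0.01 where none was called; the 2 nearest 50% at each distance; and the 3 differing most each way between cell lines. One member that this rule names is not reported here. Members and lists were chosen with earlier results of these data known. Deviations of same-numbered libraries correlated at 0.075 to 0.402 in the U2AF1 panel. Every pair exceeded 0.1 for S34F against WT with sgRenilla and for GPATCH8 loss in WT. The tests printed for these comparisons are nevertheless unpaired, and pairing entered only through the replicate block among the alternatives. In the other panels correlations ran from −0.048 to 0.033. Alternatives changed the offset, filter, threshold, prior, runs, replicate block and libraries.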

Additional observations from a re-analysis of the deposited data

Results flagged for a closer look

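In groups of 4 libraries, 7 of 85 groups of named members held a library whose gap to its nearest neighbour took up most of the group's range. Chance flags about 1 in 20 groups. Other panels have at most 3 libraries a group, so only 293T could be examined. With sgSUGP1 guide 4, replicate 1 stood at 47% for SMARCAD1 against 32% to 34% in the others, at 96% for SPX against 87% to 88%, and at 6% for CYLD against 4%. VRK1 stood at 97% in replicate 2 of guide 4 against 96%, and TUBB2B at 99% in replicate 1 of guide 3 against 100%. With sgGPATCH8 guide 16, GSN stood at 15% in replicate 1 against 26% to 28%, and FZD3 at 82% in replicate 2 against 93% to 94%. The gaps of CYLD, VRK1 and TUBB2B are 1 or 2 steps of the deposited decimals.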

How the results depend on the processing

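The 17 members called between K700E and WT came to 8 with no filter on group means, 10 with untransformed fractions, 1 with run 1 alone, 2 with run 2 alone, 6 with the replicate block and 3 to 7 with 1 library left out. With sgRenilla alone no filter gave 1 in place of 0. The 11 members called for GPATCH8 loss in P95H came to 4 at a difference of at least 10 points, 7 with no filter, 5 with the replicate block and 3 to 8 with 1 library left out. The single calls of P95H against WT and of GPATCH8 loss in SRSF2 WT came to 0 at 10 points, with the replicate block and with any library left out. The single call of SUGP1 loss in SF3B1 WT came to 0 with 1 missing value allowed, no trend in the prior variance, the replicate block, run 1 alone, run 2 alone or any library left out. The call of SUGP1 loss in 293T came to 2 with 1 mean per target, an offset of 0.05 or untransformed fractions, to 3 with no filter, and to 0 with the replicate block or any library left out. Where none was called, SUGP1 loss in K700E gave 1 with no filter and 4 with run 2 alone, GPATCH8 loss averaged over SF3B1 genotypes gave 1 with no filter, and GPATCH8 loss in 293T gave 1 with 1 mean per target and 2 with no filter. The cause of these changes was not tested. In the U2AF1 panel, where same-numbered libraries correlated and the main tests were unpaired, the replicate block left 0 members called. Over all 32 calls of members, which include called members not named in the text, 472 values under alternatives kept the call in 216 cases and lost it in 256. Of these values 0 reversed direction. Leaving out a library that left a group with 1 assumes that it varies like the others.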
